A study of Sus scrofa with 8 samples.

Results

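A set of 10 genes of NOTCH signaling was followed in the bulk transcriptome of porcine pancreatic ductal organoids (PPDO), which are grown from picked ducts of the pig pancreas. They are the ligands *DLL1*, *DLL4*, *JAG1* and *JAG2*, the receptors *NOTCH1*, *NOTCH2* and *NOTCH3*, and the transcriptional repressors *HES1*, *HEYL* and *HES7*. Members were chosen by symbol, and all 10 were present among the 30282 genes of the count table, each under a single gene identifier. The data comprise 8 libraries, in which 4 PPDO lines were each cultured in complete medium (labelled Control) and in differentiation medium (labelled Treated). The line Em was derived from an embryonic pancreas, EPN1 and EPN2 from early postnatal pancreata and LPN from a late postnatal pancreas, so that the embryonic and the late postnatal stage are each represented by a single line. The study used wild-type and *INS*-eGFP pigs, and the genotype behind each line is not given in the sources used here. Complete medium contained WNT3a, R-spondin1, noggin, FGF10, EGF, gastrin and prostaglandin E2, which differentiation medium lacked. For maintaining PPDO, the study supplied WNT3a, R-spondin1 and noggin as a conditioned medium supplement. The organoids were collected after a week of culture in either medium. Both media shared the N2 and B27 supplements, the TGF-beta receptor inhibitor A83-01, the ROCK inhibitor Y-27632, nicotinamide and N-acetylcysteine, and neither composition lists a gamma-secretase inhibitor. A further field of the sample labels names an endocrine induction medium for all 8 samples, and the media are assigned here by the sample titles and the column names of the table.

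In NOTCH signaling, a DLL or JAG ligand on one cell binds a NOTCH receptor on its neighbor. The receptor is then cut by ADAM proteases and by gamma-secretase, and its intracellular domain moves to the nucleus, where it joins RBPJ and a MAML coactivator and switches on genes of the HES and HEY families. In the developing pancreas, Hes1 is known for restraining the endocrine program by repressing Neurog3, and NOTCH signaling is known to maintain ductal and progenitor fates.

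Library totals ranged from 40553593 to 47910657 counts. Expression is given as CPM, which are counts brought to a common library size after TMM scaling, a normalization that assumes that most genes do not differ. CPM is not corrected for gene length, so that levels are compared between libraries and never between genes. For differences between media, edgeR's quasi-likelihood fit was run on the 14475 genes that passed its expression filter, without regard to the line, and a gene was called at a Benjamini-Hochberg adjusted p-value under 0.05 over all of them. Where a fit with the line as a block changed a call, its adjusted p-value is given as well. Differences are differentiation minus complete medium, so that a positive value is higher in differentiation medium. The cultures expressed the ductal and epithelial genes *KRT7* (522 to 2837 CPM over the 8 libraries), *KRT8* (425 to 4906 CPM) and *EPCAM* (228 to 640 CPM). The ductal gene *CFTR* was far less even. It had 7.68 (LPN) to 338 CPM (Em) in complete and 2.97 (EPN2) to 128 CPM (Em) in differentiation medium, with 2 lines higher and 2 lower. Of the 9 ductal and epithelial markers in the table, 7 were lowest in EPN2 in differentiation medium, the exceptions being *SOX9* and *CDH1*. *CDH1*, which encodes E-cadherin, was higher in differentiation medium in all 4 lines without overlap, also in EPN2 (1569 and 2503 CPM), and was called with the block (adjusted p = 0.0172) but not without it (0.0646). The endothelial marker *CDH5* was at 0 in 7 libraries, and the acinar marker *PNLIP* was at 0 in all 8. Other markers outside the ductal list were present. Over the 8 libraries the immune marker *CD79A* had 1022 to 1804 CPM, while the immune marker *CD3E* had at most 0.0217 CPM. The fibroblast marker *THY1* had 140 to 533 CPM and *VIM*, of the same list, 1.49 to 66.7 CPM. The rest of that list was low, with *COL3A1* at most at 6.07 CPM. *COL1A1*, *COL1A2*, *DCN*, *LUM* and *PDGFRA* had at most 1.75 CPM in any library. The endothelial marker *PECAM1* had 7.96 to 17.6 CPM. Of the ductal, endothelial, mural, fibroblast, immune and acinar markers, edgeR called none without the block (7 at an unadjusted p under 0.05) and *CDH1*, *TIE1* and *PDGFRB* with it. DESeq2 without the block called 6, with *CDH1*, *MCAM*, *COL3A1* and *PDGFRA* higher and *TIE1* and *PDGFRB* lower. With the block DESeq2 called 10. Of these, *CDH1*, *TEK*, *ESAM*, *COL1A2*, *COL3A1* and *PDGFRA* were higher and *SLC4A4*, *TIE1*, *PDGFRB* and *VIM* lower.

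Among the ligands, *DLL1* fell in differentiation medium, *JAG2* was lower and *DLL4* was higher in each of the 4 lines, and *JAG1* was higher in 2 lines and lower in 2. *DLL1* was the only member called in the edgeR test, against 6.97% of all tested genes, 2.87% higher and 4.10% lower. With the line as a block, 4 of the 9 tested members were called, namely *DLL1*, *DLL4*, *JAG2* and *NOTCH1*, whereas 19.9% of all tested genes were, 9.48% higher and 10.4% lower. DESeq2 called *DLL1*, *HEYL* and *HES7* lower and *DLL4* higher, against 18.4% of the genes it tested, 9.11% higher and 9.31% lower. With the block DESeq2 added *NOTCH1* and *NOTCH2* as higher and *JAG2* as lower, for 7 members in all, against 33.6% of genes, 17.5% higher and 16.1% lower. The 10th member, *HES7*, did not pass the expression filter of edgeR. The median log2 fold change was -0.03 over the 9 tested members and 0.01 over all tested genes.

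**Figure D1:**
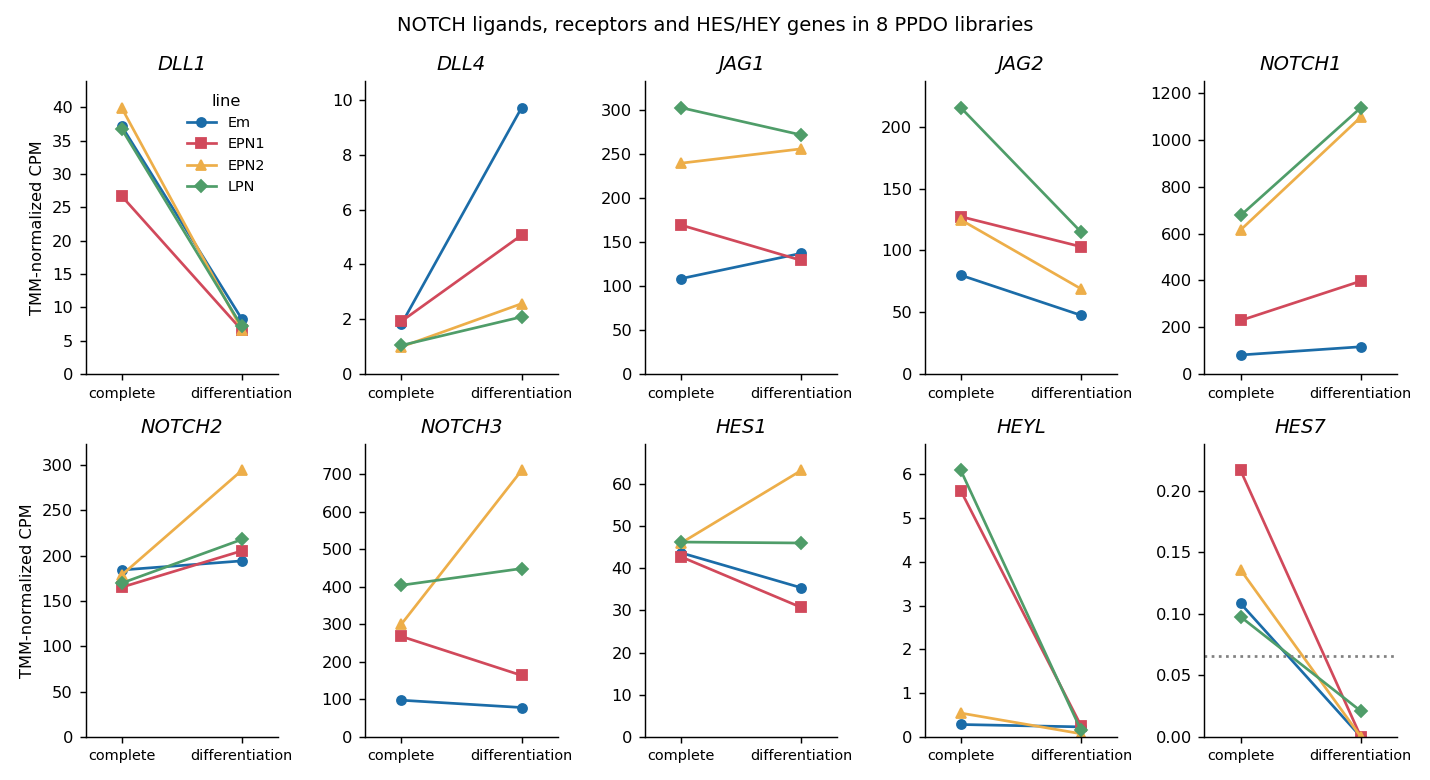
TMM-normalized CPM (linear y axes that start at 0 and differ between panels) of the 10 genes in complete and differentiation medium, with 1 symbol and connecting line per PPDO line, and in the *HES7* panel a dotted line at the median limit that a count of 0 allows. All 4 lines lie at 6.59 to 8.25 CPM of *DLL1* in differentiation medium, *DLL4* lies below 2 CPM in complete and above it in differentiation medium, and *NOTCH1* keeps the order of the lines.

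*DLL1* (ENSSSCG00000027726, on chromosome 1 at 198815 to 211346 in the RefSeq annotation of Sscrofa11.1) encodes a Delta-like ligand. In complete medium it had 37.2 CPM in Em, 26.7 in EPN1, 39.9 in EPN2 and 36.8 in LPN. In differentiation medium the values were 8.25, 6.59, 6.68 and 7.14 CPM in the same order. The groups did not overlap. The mean fell from 35.2 ± 5.80 to 7.16 ± 0.765 CPM (SD, n = 4), which is 4.91-fold lower (-2.29 ± 0.17 SE on the log2 scale, edgeR adjusted p = 0.00221). Within the lines *DLL1* was 4.06-fold (EPN1) to 5.98-fold (EPN2) lower. It was called in each of the 8 fits that leave out 1 library (adjusted p = 0.00667 to 0.0179). With the block it was called on all 4 lines (adjusted p = 0.00658) but not without EPN1 (0.0596) or without LPN (0.0539), where 8 and 22 genes of the whole table were called. In bulk RNA, fewer cells that express a gene and less RNA per cell cannot be told apart.

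*DLL4* (ENSSSCG00000004755, on chromosome 1 at 130376720 to 130386411), the other Delta-like ligand, is best known from endothelium and was low in these epithelial cultures. It had 1.82 CPM in Em, 1.92 in EPN1, 0.995 in EPN2 and 1.05 in LPN in complete medium, from 43 to 84 counts. In differentiation medium it had 9.72, 5.07, 2.57 and 2.09 CPM in the same order, from 100 to 471 counts. The groups did not overlap, although the highest value in complete medium (1.92 CPM) and the lowest in differentiation medium (2.09 CPM) lay close together. *DLL4* was 5.34-fold higher in Em, 2.64-fold in EPN1, 2.58-fold in EPN2 and 1.99-fold in LPN. Without the block *DLL4* was not called (1.75 ± 0.55 SE on the log2 scale, edgeR adjusted p = 0.0915), and with the block it was (1.55 ± 0.31 SE, adjusted p = 0.0283). In the blocked fit the adjusted p-value was 0.0548 without Em, 0.107 without EPN1, 0.0438 without EPN2 and 0.0988 without LPN. Leaving out Em in differentiation medium lowered the unblocked difference to 1.17.

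Of 10 endothelial markers, 6 passed the expression filter, and the summed level of the 10 was 26.7 to 42.4 CPM in complete and 19.2 to 49.8 CPM in differentiation medium. Over the 4 lines, *TEK* and *ESAM* were higher in each, *TIE1* and *PECAM1* lower in each and *KDR* and *VWF* mixed. With the block edgeR called *TIE1* (adjusted p = 0.0462). DESeq2 with the block called *TIE1* lower (adjusted p = 0.00189) and *TEK* (0.00297) and *ESAM* (0.0139) higher. *CDH5* and *ERG* had at most 0.0467 CPM in any library. *TEK*, which encodes the angiopoietin receptor, had 0.0240 CPM in EPN1 in complete and 12.4 CPM in differentiation medium, while the other differentiation medium libraries had 0.280 to 0.501 CPM (edgeR adjusted p = 0.0613). The part of these markers in the *DLL4* values was not tested.

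Of the Jagged ligands, *JAG2* was lower in each line in differentiation medium and *JAG1* was not. *JAG2* (ENSSSCG00000002555) had 80.0 CPM in Em, 127 in EPN1, 125 in EPN2 and 215 in LPN in complete medium. It had 47.6, 103, 68.9 and 115 CPM in differentiation medium, in the same order. The groups overlapped, yet each line was lower in differentiation medium, by 1.24-fold in EPN1 and by 1.68-fold to 1.88-fold in the others. Without the block *JAG2* was not called (-0.71 ± 0.36 SE on the log2 scale, edgeR adjusted p = 0.243), whereas with it the gene was (-0.71 ± 0.13 SE, adjusted p = 0.0237). That call was lost when Em (adjusted p = 0.0661), EPN1 (0.0679) or LPN (0.127) was left out. Leaving out LPN in complete medium brought the unblocked log2 fold change to -0.41.

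*JAG1* (ENSSSCG00000007067, on chromosome 17 at 19591248 to 19629659) differed far more between lines than between media. Its values in complete medium were 109 CPM in Em, 170 in EPN1, 240 in EPN2 and 303 in LPN. In differentiation medium they were 137, 129, 256 and 272 CPM in the same order. *JAG1* was higher in Em and EPN2 and lower in EPN1 and LPN, with means of 205 ± 84.5 and 199 ± 75.9 CPM (SD, n = 4; -0.05 ± 0.37 SE on the log2 scale, edgeR adjusted p = 0.951). Because *DLL1* fell while *JAG1* had no common direction, the ratio of *DLL1* to *JAG1* counts, a measure in which gene length cancels between libraries, was lower in every line in differentiation medium. It was 0.342 in Em, 0.157 in EPN1, 0.166 in EPN2 and 0.121 in LPN in complete medium. In differentiation medium it was 0.0600, 0.0509, 0.0261 and 0.0262. The ratio of *DLL1* to *DLL4* counts was 13.9 to 40.2 in complete and 0.849 to 3.42 in differentiation medium. Neither ratio was tested.

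**Figure D2:**
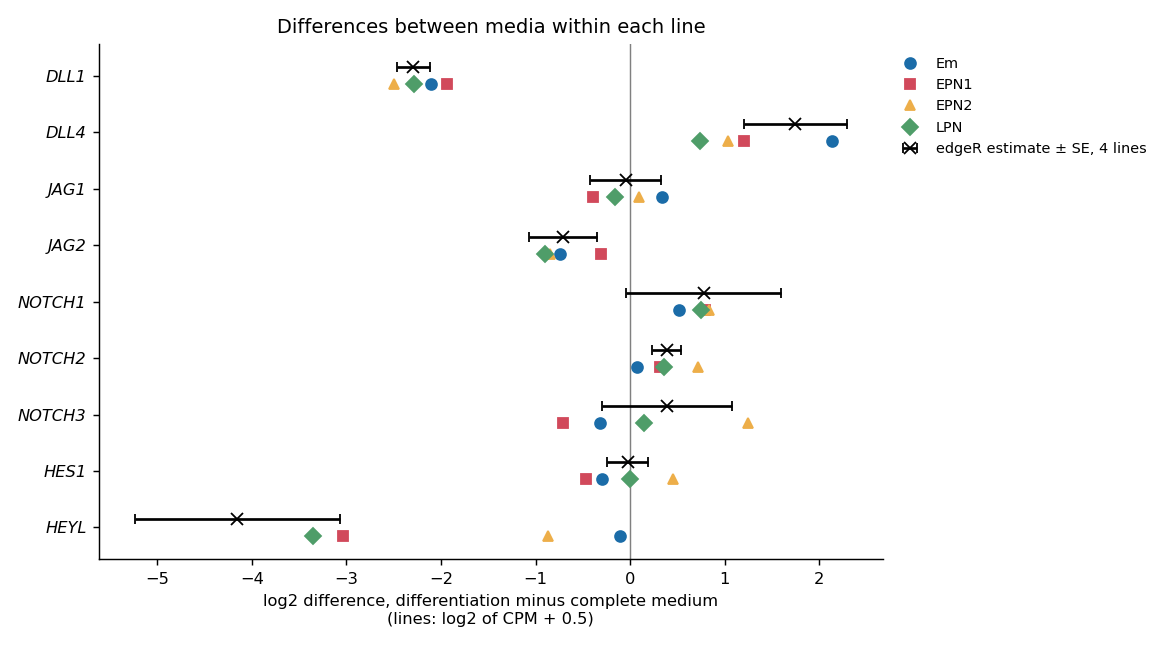
Log2 difference between differentiation and complete medium (x axis) for the 9 tested genes, with colored symbols for the difference within each line on the scale of log2(CPM + 0.5) and black crosses for the edgeR estimate over 4 lines with its SE. *DLL1*, *JAG2* and *HEYL* lie below 0 and *DLL4*, *NOTCH1* and *NOTCH2* above 0 in all 4 lines, whereas *JAG1*, *NOTCH3* and *HES1* lie on both sides.

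The receptors showed no fall in common. *NOTCH1* and *NOTCH2* were higher in differentiation medium in all 4 lines, and *NOTCH3* was higher in EPN2 and LPN and lower in Em and EPN1. *NOTCH1* (ENSSSCG00000038509) had 81.7 CPM in Em, 229 in EPN1, 616 in EPN2 and 678 in LPN in complete medium. It had 117, 397, 1098 and 1138 CPM in differentiation medium, in the same order. The lines differed by 8.29-fold in complete and 9.74-fold in differentiation medium and kept their order, so that the groups overlapped widely. The level in differentiation medium was higher by 1.43-fold in Em, 1.73-fold in EPN1, 1.78-fold in EPN2 and 1.68-fold in LPN. Without the block the spread between lines exceeded the difference between media (0.78 ± 0.82 SE on the log2 scale, edgeR adjusted p = 0.572). With the block *NOTCH1* was called (0.72 ± 0.11 SE, adjusted p = 0.0175), and it remained past the threshold without Em (0.0337) and without EPN2 (0.0275) but not without EPN1 (0.0914) or LPN (0.105). The unblocked log2 fold change ranged from 0.43 without LPN in differentiation medium to 1.15 without LPN in complete medium.

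*NOTCH2* (ENSSSCG00000006709, on chromosome 4 at 100951522 to 101152348) was the most even receptor across lines in complete medium. It had 184 CPM in Em, 165 in EPN1, 179 in EPN2 and 170 in LPN there. In differentiation medium it had 194, 205, 294 and 218 CPM in the same order. The groups did not overlap, but the difference ranged from 1.05-fold in Em to 1.65-fold in EPN2. *NOTCH2* was not called (0.39 ± 0.15 SE on the log2 scale, edgeR adjusted p = 0.148), nor did the block change this (adjusted p = 0.0988). Leaving out EPN2 in differentiation medium lowered the difference to 0.24.

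*NOTCH3* (ENSSSCG00000025176, on chromosome 2 at 62364507 to 62402348), a receptor best known from mural cells of vessels, had 97.6 CPM in Em, 268 in EPN1, 300.2 in EPN2 and 404 in LPN in complete medium. In differentiation medium it had 78.1, 164, 710.5 and 449 CPM in the same order. EPN2 was the highest of the lines in differentiation medium, 2.37-fold above its complete medium value, while EPN1 was 1.64-fold lower. The medium difference was small beside its error (0.39 ± 0.68 SE on the log2 scale, edgeR adjusted p = 0.745), and it turned to -0.21 without EPN2 in differentiation medium. The keratin gene *KRT18* went from 375 to 45.2 CPM in EPN2, the lowest value of the 8 libraries, while *CDH1* was 1.60-fold higher there, and the part of these markers in the *NOTCH3* and *HES1* values was not tested.

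Of the target genes, *HES1*, the canonical effector of NOTCH in the pancreas, showed no common direction, *HEYL* was lower in every line, and *HES7* was near the limit of detection. *HES1* (ENSSSCG00000031356, on chromosome 13 at 131135970 to 131137865) had 43.7 CPM in Em, 42.7 in EPN1, 46.0 in EPN2 and 46.2 in LPN in complete medium. The 4 lines thus lay within 1.08-fold of each other, the narrowest range of the 10 members in that medium. In differentiation medium *HES1* had 35.4, 30.7, 63.2 and 46.0 CPM in the same order, a range of 2.06-fold. Means were 44.6 ± 1.73 and 43.8 ± 14.4 CPM (SD, n = 4; -0.03 ± 0.22 SE on the log2 scale, edgeR adjusted p = 0.951). *HES1* was 1.37-fold higher in EPN2, 1.39-fold lower in EPN1 and 1.23-fold lower in Em, and LPN was level. Without EPN2 in differentiation medium the unblocked difference was -0.26 (edgeR adjusted p = 0.335). The order of these differences over the lines, from EPN1 through Em and LPN to EPN2, was that of *NOTCH3*. It was not particular to this receptor, as the pathway genes *KAT2B* and *TLE3* had the same order, and it was not tested. Over the 8 libraries, which share lines and media, Pearson's r of *HES1* was 0.74 with *NOTCH3* and 0.65 with *JAG1*.

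*HEYL* (ENSSSCG00000038956, on chromosome 6 at 95442655 to 95459597), a HEY family repressor, split the lines in complete medium, with 5.63 CPM in EPN1 and 6.09 in LPN against 0.282 in Em and 0.543 in EPN2. In differentiation medium it had 0.249 CPM in EPN1, 0.146 in LPN, 0.227 in Em and 0.0701 in EPN2, from 3 to 11 counts. The groups did not overlap, with a gap from 0.282 to 0.249 CPM that rests on 13 and 11 counts. *HEYL* was 41.7-fold lower in LPN, 22.6-fold in EPN1, 7.74-fold in EPN2 and 1.24-fold in Em. *HEYL* passed the expression filter of edgeR through complete medium, where it had 13 to 250 counts. EdgeR did not call *HEYL* (-4.15 ± 1.08 SE on the log2 scale, adjusted p = 0.0587), nor with the block (adjusted p = 0.0587). It was past the threshold without Em (adjusted p = 0.0472) or EPN2 (0.0429) in complete medium, the lines in which *HEYL* was low. DESeq2 called it with and without the block (adjusted p = 0.000461 and 0.000310). *PDGFRB*, a mural and stromal receptor gene, was also lower in all 4 lines, from 4.85 to 0.825 CPM in Em, from 3.32 to 0.204 in EPN1, from 0.430 to 0.0234 in EPN2 and from 2.34 to 0.480 in LPN. With the block *PDGFRB* was called (adjusted p = 0.0160). Of the 8 mural markers, 3 passed the filter, the others being *MYH11* and *MCAM*. *MYH11* was lower in 3 lines and higher in EPN2 (edgeR adjusted p = 0.275). *MCAM* went the other way, from 1.47 to 14.4 CPM in Em, from 0.721 to 10.5 in EPN1 and from 0.585 to 1.46 in LPN, and was lower in EPN2 (edgeR adjusted p = 0.140, DESeq2 adjusted p = 0.0206). The summed level of the 8 was 1.81 to 7.21 CPM in complete and 0.701 to 16.2 CPM in differentiation medium, and *RGS5* and *DES* were at 0 in most libraries. The part of these markers in the *HEYL* values was not tested.

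*HES7* (ENSSSCG00000017982), an oscillating repressor of the segmentation clock, had 5 counts in Em, 9 in EPN1, 6 in EPN2 and 4 in LPN in complete medium. In differentiation medium it had 1 count in LPN and 0 in the other 3 lines, which allows up to 3 counts or 0.0626 to 0.0722 CPM. Summed over the libraries, 24 counts stood against 1, a ratio of 24.8 with a 95% exact interval of 4.05 to 1022 that covers counting error only. *HES7* failed the expression filter of edgeR, whereas DESeq2 called it lower (adjusted p = 0.00736, and 0.0368 with the block). Of its 25 counts, 12 came from a row extended downstream of the gene, and the symbol in the count table belongs to another identifier in a separate table of gene names.

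Among the tested members, the media did not overlap for 4, *DLL1* and *HEYL* lower and *DLL4* and *NOTCH2* higher, while this held for 18.8% of all tested genes, 8.82% higher and 9.96% lower. The direction was common to all 4 lines for 6 of the tested members, 3 higher and 3 lower, and for 48.1% of all tested genes, 23.9% higher and 24.2% lower. *HEYL*, which counts as lower in either tally, passed the expression filter through complete medium, where it was higher.

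For several members most of the variance lay between lines. After a split of the variance of log2(CPM + 0.5) over the 8 libraries into line, medium and neither, the line carried 93.2% for *JAG1*, 92.5% for *NOTCH1*, 87.3% for *NOTCH3*, 63.5% for *JAG2* and 59.5% for *HES1*. The median over all tested genes was 49.2% for the line and 24.6% for the medium. *DLL1* stood at the other end, with 97.5% for the medium and 1.68% for the line. The medium carried 54.2% for *NOTCH2*, 53.5% for *DLL4* and 45.5% for *HEYL*. *HES1* had the largest share left to neither, at 38.5%. In complete medium *JAG1*, *NOTCH1* and *NOTCH3* had the same order of lines, from Em through EPN1 and EPN2 to LPN, and over the 8 libraries Pearson's r was 0.92 for *NOTCH1* with *NOTCH3*, 0.88 for *JAG1* with *NOTCH3* and 0.87 for *JAG1* with *NOTCH1*. Since Em is a single line, its low values cannot be assigned to the embryonic stage.

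**Figure D3:**
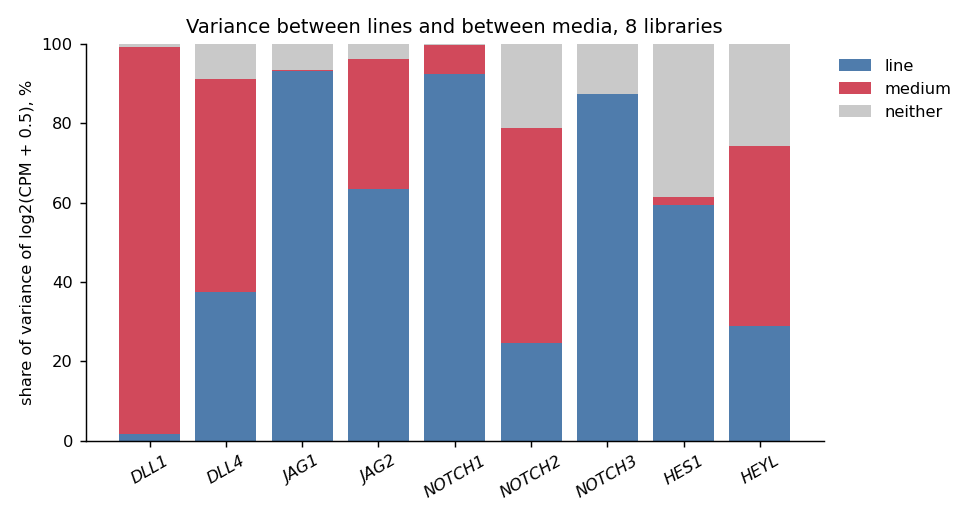
Share of the variance of log2(CPM + 0.5) over 8 libraries (y axis, %) that lies between the 4 lines, between the 2 media and in neither, for the 9 tested genes. The medium takes 97.5% for *DLL1*, and the line takes 87.3% to 93.2% for *JAG1*, *NOTCH1* and *NOTCH3*.

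By likeness over the 8 libraries on the same log scale, the gene closest to *DLL1* was *MIF* (r = 0.996), followed by *ADORA1* and *SPRED1* (both r = 0.99). The closest to *NOTCH1* was *FAT2* (r = 0.99), to *NOTCH3* *EGR3* (r = 0.99), to *DLL4* *TRANK1* (r = 0.99) and to *HES1* *CPEB2* (r = 0.98). These are the extremes of 14475 genes over few libraries and are given as a description.

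Beyond the 10 members, 72 further NOTCH pathway genes were listed, 69 of which were found in the table by symbol and 58 of which were tested. In the edgeR test 5 were called, 3 higher and 2 lower, which is 8.62% of the 58 beside 6.97% of all tested genes, with a median log2 fold change of 0.12. With the line as a block 9 were called, 5 higher and 4 lower, which is 15.5% beside 19.9%. By role and without the block, calls fell on 1 of 4 further ligands, 1 of 6 receptor glycosylation genes, 2 of 9 nuclear complex genes and 1 of 11 corepressor genes. None was called among 4 genes of ligand endocytosis, 8 of receptor cleavage, 9 negative regulators, 5 further HES, HEY and NRARP targets, *NOTCH4* and 1 proneural gene.

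Of these 5, *RBPJ* and *MAML1* are parts of the transcription complex, and they moved in opposite directions. *RBPJ*, the DNA-binding partner of the NOTCH intracellular domain, had 57.1 CPM in Em, 104 in EPN1, 50.3 in EPN2 and 52.7 in LPN in complete medium. It had 29.7, 38.4, 26.9 and 25.5 CPM in differentiation medium. The groups did not overlap, and the mean was 2.19-fold lower (-1.13 ± 0.27 SE on the log2 scale, edgeR adjusted p = 0.0442). *MAML1*, a coactivator of that complex, rose from 34.3 to 42.8 CPM in complete medium to 56.9 to 82.3 CPM in differentiation medium (0.77 ± 0.15 SE on the log2 scale, edgeR adjusted p = 0.0294). The other 7 tested genes of the complex were not called by edgeR with or without the block, among them *MAML2*, *MAML3*, *EP300* and *CREBBP*. DESeq2 called *CREBBP* higher (adjusted p = 0.0172, and 0.0299 with the block). With the block it also called *EP300* higher (DESeq2 adjusted p = 0.0325, and 0.0990 without the block).

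*POFUT1*, which adds the O-fucose that NOTCH receptors need for ligand binding, fell from 63.3 to 76.5 CPM in complete medium to 33.7 to 43.1 CPM in differentiation medium (-0.90 ± 0.12 SE on the log2 scale, edgeR adjusted p = 0.0121). *TLE1*, a Groucho corepressor recruited by HES proteins, rose from 28.6 to 55.3 CPM to 95.9 to 163 CPM (1.66 ± 0.26 SE on the log2 scale, edgeR adjusted p = 0.0179). *DLK2*, a noncanonical ligand of the Delta family, rose from 1.41 to 3.73 CPM to 3.94 to 17.9 CPM (2.06 ± 0.50 SE on the log2 scale, edgeR adjusted p = 0.0490). All 5 genes moved the same way in 4 of 4 lines without overlap between the media. *POFUT1* was called whichever library was left out (highest adjusted p = 0.0493). *TLE1* was called in 4 of those 8 fits and *MAML1* in 3, with the highest adjusted p-value (0.0591 and 0.0868) without LPN in complete medium for both. *RBPJ* and *DLK2* were called in 1 each, with highest adjusted p-values of 0.115 without LPN in differentiation medium and 0.130 without EPN1 in complete medium. In the blocked fits without the line EPN1 or without LPN, none of these 5 genes was called, *POFUT1* included.

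**Figure D4:**
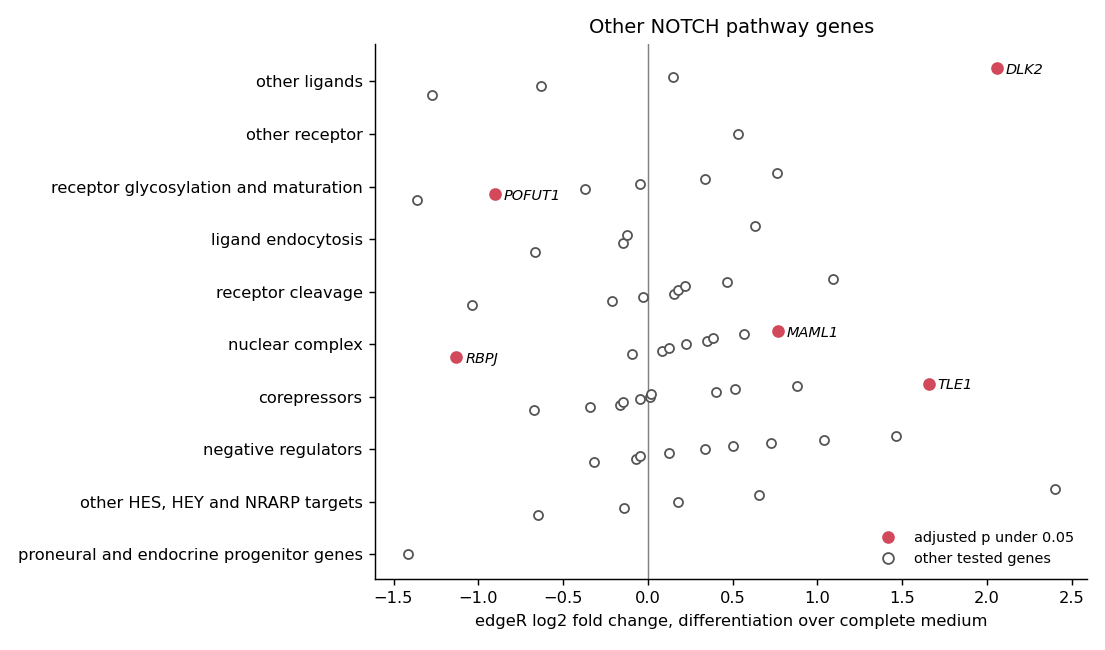
EdgeR log2 fold change (x axis) of the 58 tested NOTCH pathway genes outside the 10 members, by role (y axis), with filled points for an adjusted p-value under 0.05. The 5 filled points are *DLK2*, *MAML1* and *TLE1* above 0 and *RBPJ* and *POFUT1* below 0.

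Among the genes that the block added was *TLE4*, another Groucho gene, as higher (adjusted p = 0.0145 with and 0.0742 without the block). It also added *EGFL7*, a secreted NOTCH ligand-like protein (0.0135 and 0.110), and the NOTCH feedback gene *NRARP* (0.0276 and 0.683), both lower. *NRARP* had 11.4 CPM in Em, 39.1 in EPN1, 129 in EPN2 and 107 in LPN in complete medium, and 4.58, 25.7, 79.6 and 72.7 CPM in differentiation medium. It was lower in each line, and like *NOTCH1* it differed most between lines, with 93.0% of its variance. *ADAM10*, which makes the first cut in bound receptors, had 239 ± 103 and 509 ± 157 CPM (SD, n = 4; 1.09 ± 0.35 SE on the log2 scale, edgeR adjusted p = 0.0954), and EPN2 alone was not higher.

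No other HES or HEY gene was called. *HES4* had 9.64 CPM in Em in complete and 57.2 CPM in differentiation medium, while the postnatal lines had 67.4 to 126 and 53.4 to 151 CPM (0.18 ± 0.67 SE on the log2 scale, edgeR adjusted p = 0.889). *HES2* had 13.5 and 103 CPM in EPN2 and 1.88 and 0.866 CPM in Em (2.40 ± 1.24 SE on the log2 scale, edgeR adjusted p = 0.249). *HEY1* had 160 and 32 counts in EPN2 and 3 to 16 counts in the other libraries, and it did not pass the filter. *HES5* was at 0 counts in all 8 libraries, which allows up to 3 counts in each. *NOTCH4*, the remaining receptor, had 0.842 to 1.45 CPM in complete and 1.19 to 2.15 CPM in differentiation medium (adjusted p = 0.309). *NEUROG3*, the endocrine progenitor gene repressed by HES1, had 0 counts in complete medium and at most 1 count in differentiation medium, which is not above the limit of 3.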

How the data were processed

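Poly(A) RNA of 4 PPDO lines in 2 media was sequenced and quantified with salmon by the authors against a custom annotated pig genome. They deposited estimated counts per gene row, labelled raw. Whether these were length scaled is not stated for the file, although the study's methods describe an input scaled by gene length. The submitters' processing notes name Sscrofa11.1, and gene positions are from RefSeq, matched by symbol, with *NOTCH1* and *JAG2* not placed on a chromosome. Rows with -iso and -ext were summed per gene and rounded. The 8 rows of reporter transgenes (0.00142% of counts) were left out. Columns were assigned to media and lines by their names. The replicate numbers of the labels were not matched to columns.

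The analysis used R 4.3.3, edgeR 4.0.16 (TMM, filterByExpr, glmQLFit and glmQLFTest on the medium) and DESeq2 1.42.0. The SE is the absolute log2 difference divided by the square root of F. Scripts were tested on simulated data. The lines pair the libraries: deviations from the medium mean correlated at 0.40 to 0.66 for the 4 same-line pairs and -0.49 to 0.27 for the 12 others. The alternatives were RLE scaling, no filter, the line as a block, DESeq2, no -ext rows and leaving out libraries or lines. Members, lists and tests were chosen with earlier results of these data known. All 10 members are named, with pathway genes called in either edgeR fit or core to the pathway. *HES2*, *EP300*, *CREBBP*, *MAML2*, *MAML3*, *KAT2B*, *TLE3* and the cell type markers were named after their values were seen. Of the symbols searched, *NUMBL*, *INSM1* and *KRT19* were among those not found in the table. A pathway gene called with the block is not reported here.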

Additional observations from a re-analysis of the deposited data

Results flagged for a closer look

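A single library stood apart for *HES7*, with 0.0209 CPM in LPN in differentiation medium while the other 3 libraries of that medium were at 0. This value is 1 count and is under the limit of 3. Of 20 groups of 4 libraries examined for the 10 members, this was the only one flagged, and for normally distributed values chance flags about 1 in 20. That rate does not hold for *HES7* here. With the other 3 libraries at 0, any single count is flagged.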

How the results depend on the processing

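The fall of *DLL1* had the same direction in all 18 alternatives (log2 fold change -2.39 to -2.18) and passed the threshold in 16, the exceptions being the blocked fits without EPN1 and without LPN. *DLL4*, *JAG2*, *NOTCH1*, *NOTCH2* and *HEYL* kept their direction in all 18 and passed the threshold in 4, 3, 4, 1 and 5 of them. Signs turned for *JAG1* (-0.23 to 0.20 over the fits without a library or line), *NOTCH3* (-0.29 to 0.72) and *HES1* (-0.26 to 0.11), none of which was called in any alternative. The number of members called was 4 with the replicate block in edgeR, 4 in DESeq2, 7 in DESeq2 with the block and 0 to 4 when a library or line was left out, with 0 in the blocked fits without EPN1 or without LPN. For all genes, the count of 1009 became 506 without the filter, 2884 with the block, 3024 in DESeq2, 5594 in DESeq2 with the block and 8 to 2989 when a library or line was left out, and for the other NOTCH pathway genes the count of 5 became 3, 9, 12, 18 and 0 to 15. The lowest counts over all genes came without EPN1 in differentiation medium (70) and, with the block, without EPN1 (8) or LPN (22), and 1 pathway gene was called without EPN1 or LPN in either medium. Low counts limit *HES7* and, in differentiation medium, *HEYL*. The cause of these shifts was not tested.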
